A study of Mus musculus with 6 samples.

Results

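The Eph receptors and their ephrin ligands, the Slits and their Robo receptors, and the netrins with the receptors Unc5, Dcc and Neo1 were followed as a set of 36 guidance genes, 23 receptors and 13 ligands. Members were the genes of these families by symbol, each represented by its brightest probe set, by the mean of all 6 arrays, among probe sets assigned to that gene alone. This gave 35 members of 18193 genes on the array, namely 22 receptors and all 13 ligands. Ephb2 had no probe set of its own in the annotation and was not analysed here. RNA came from tumours that 344SQ cells had formed under the skin of syngeneic mice, hosts of the genetic background of the cells. 344SQ is a widely metastasising lung adenocarcinoma line made from a mouse with the alleles KrasLA1/+ and p53R172HdelG/+, so both groups share these alleles. Flow cytometry had split the tumours by CD133 into high and low fractions, with 3 arrays each. CD133 is the surface glycoprotein encoded by Prom1. The labels name no treatment, no age or named strain of the hosts and no animal, so that the spread behind every p-value here is that between arrays and may be technical.

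Ephrins are ligands tethered to the cell surface, A types by a lipid anchor and B types by a transmembrane segment, and they bind Eph receptor tyrosine kinases on neighbouring cells, with signals running into both cells. Slits are secreted proteins that bind Robo receptors and mostly repel migrating cells, and netrins are secreted, laminin-like proteins that attract through Dcc and Neo1 or repel through Unc5 receptors. Beyond the nervous system these families act in vessel formation, in epithelial boundaries and in the movement of tumour cells, and ephrin-B2 is a textbook Notch target of arterial endothelium. The study's title concerns tumour cells that respond to Notch inhibition, and comparing its fractions addresses what distinguishes CD133 high cells.

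The promoter windows of Efnb2, Slit2, Unc5b and Efnb1 are shown as examples. All probe sets of each of these genes were higher in CD133 high. Other members met this too, among them Epha5 and Efna3, which had smaller p than Efnb1 in limma, and their windows are not shown. The windows run from 250 bases before to 50 bases after the start in RefSeq's GRCm38.p6, 5′ to 3′ along the gene, at chr8:8661193-8661492 on the minus strand (Efnb2), chr5:47982905-47983204 on the plus strand (Slit2), chr10:60831532-60831831 on the minus strand (Unc5b) and chrX:99135811-99136110 on the plus strand (Efnb1). Capitals mark the GC box GGGCGG, a site of Sp-type factors, and TGGGAA, the core bound by RBPJ, the DNA-binding partner of Notch, each on either strand and without overlap between motifs in these windows.
Efnb2: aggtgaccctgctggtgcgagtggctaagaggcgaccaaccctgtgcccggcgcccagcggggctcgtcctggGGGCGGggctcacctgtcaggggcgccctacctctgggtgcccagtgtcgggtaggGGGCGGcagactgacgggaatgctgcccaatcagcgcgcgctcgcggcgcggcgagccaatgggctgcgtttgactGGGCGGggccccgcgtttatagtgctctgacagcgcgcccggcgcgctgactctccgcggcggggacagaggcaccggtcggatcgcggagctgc
Slit2: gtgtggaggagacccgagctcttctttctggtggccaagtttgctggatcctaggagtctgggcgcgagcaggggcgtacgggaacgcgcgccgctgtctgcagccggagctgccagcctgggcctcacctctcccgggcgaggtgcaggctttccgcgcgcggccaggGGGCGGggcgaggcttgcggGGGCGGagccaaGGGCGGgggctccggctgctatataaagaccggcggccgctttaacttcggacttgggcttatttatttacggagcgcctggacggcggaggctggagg
Unc5b: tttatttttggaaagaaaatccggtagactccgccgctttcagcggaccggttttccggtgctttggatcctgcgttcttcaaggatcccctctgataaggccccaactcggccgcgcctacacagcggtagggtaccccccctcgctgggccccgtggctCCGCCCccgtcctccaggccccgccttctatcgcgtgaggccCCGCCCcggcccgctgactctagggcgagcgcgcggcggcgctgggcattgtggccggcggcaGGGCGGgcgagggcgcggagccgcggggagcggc
Efnb1: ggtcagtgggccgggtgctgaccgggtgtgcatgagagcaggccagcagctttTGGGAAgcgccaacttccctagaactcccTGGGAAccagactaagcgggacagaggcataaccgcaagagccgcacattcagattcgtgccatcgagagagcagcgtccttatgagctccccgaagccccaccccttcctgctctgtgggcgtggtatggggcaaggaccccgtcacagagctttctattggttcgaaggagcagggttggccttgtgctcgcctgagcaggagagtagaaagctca
Efnb1 holds TGGGAA at 2 places and no GGGCGG, whereas Efnb2, Slit2 and Unc5b hold GGGCGG at 3 places each and no TGGGAA. A window of Efna3, not printed, holds both, TGGGAA at 1 place and GGGCGG at 3. RefSeq windows were found for 31 member genes, and 7 of them hold TGGGAA, or 22.6%, against 28.3% of all 27025 genes with a window. GGGCGG stands in 22 of the 31 member genes (71.0%) and in 38.2% of all genes, and the AP-1 motif TGANTCA in 0 of the 31 and in 8.97% of all genes. Member windows are rich in G and C, with a median of 64.8% over 36 windows against 52.7% over all 32851. A match describes letters only, and the absence of one says nothing about binding.

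CD133 high replicate 1 differed from CD133 high replicates 2 and 3. Across all probe sets its mean Spearman correlation was 0.973 with the CD133 low arrays and 0.931 with CD133 high replicates 2 and 3. Hybridisation controls averaged 10.38, 11.29 and 11.04 on its fraction in the order of replicates 1, 2 and 3, where CD133 low gave 10.19 to 10.51, and the 3′ probe set of Gapdh exceeded the middle one by −0.13, 0.44 and 0.46 in the same order, where CD133 low gave −0.09 to −0.07. On these control values replicates 2 and 3, rather than replicate 1, lay farthest from the CD133 low arrays. The members with a call are therefore given with and without CD133 high replicate 1. Without it, both remaining CD133 high arrays have the shifted control values and no CD133 low array does. In that fit the fraction and the control values cannot be told apart. The part of these control values in the differences was not tested. Prom1, the sorted gene, was dim throughout by the measure given next but read 6.40 to 6.80 in CD133 high, with replicate 1 the highest, and 5.49 to 6.06 in CD133 low (0.79, SE 0.26, adjusted p = 0.297 in limma). Without replicate 1 its difference was 0.69 (adjusted p = 0.125). Among 9 epithelial markers, Cdh1, Epcam, Krt7, Krt8, Krt18 and Krt19 had means from 10.42 to 12.89 in CD133 low and from 10.51 to 12.79 in CD133 high, so both fractions carry epithelial RNA. The claudins Cldn3, Cldn4 and Cldn7 were dimmer, with means of 7.05, 7.65 and 8.45 in CD133 low and differences of −0.66, −0.42 and −0.73. Over the 9 markers the median was −0.16, and −0.44 without replicate 1, with 6 of 9 lower, and 0 passed with all 6 arrays. Without replicate 1, Krt18 (−0.76) and Cldn3 (−1.33) passed as lower and Epcam (0.38) as higher. These are 33.3% of the markers, where 26.3% of all genes passed. All values are log2 probe set values as deposited. As the table gives no detection call, a gene is called dim here when its mean lies under 6.89, the 90th percentile of 71 olfactory and vomeronasal receptor genes, and 16 of the 35 members are dim, as are 40.0% of all genes.

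No member passed the test with all 6 arrays. At an adjusted p under 0.05 (limma, Benjamini-Hochberg over 45037 probe sets), 0 of 35 were called, where 46 of 18193 genes or 0.253% were, and the smallest adjusted p among members was 0.272. At an unadjusted p under 0.05, 12 members stood out, or 34.3%, against 18.2% of all genes, 10 of them higher and 2 lower in CD133 high, where 8.3% of all genes were higher and 9.94% lower. The fractions did not overlap for 9 members (25.7%), Epha1, Epha5, Robo1, Unc5b, Neo1, Slit2, Efna3 and Efnb2 above and Robo3 below, where 23.6% of all genes had such fractions, 10.8% above and 12.8% below. The median difference, CD133 high minus CD133 low, was 0.40 over the 35 members, 0.31 over the 22 receptors and 0.40 over the 13 ligands, and 0.00 over all genes. Of the members 25 were higher and 10 lower, and of all genes 9112 were higher and 9061 lower.

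Without CD133 high replicate 1 the picture changed, as it did for the whole array. Then 17 of 35 members (48.6%) passed the test, where 26.3% of all genes did. Higher were 15 members (42.9%) against 11.7% of all genes, and lower were 2, Efna2 and Robo3, against 14.6% of all genes. The 15 were Epha4, Epha5, Epha8, Robo1, Unc5a, Unc5b, Unc5c and Neo1 among the receptors and Efna3, Efna4, Efna5, Efnb1, Efnb2, Slit2 and Ntn1 among the ligands. The median difference without replicate 1 was 0.65 over all members, 0.64 over receptors and 0.70 over ligands. With any other single array left out, 0 members were called in limma, and 5 to 9 had an unadjusted p under 0.05. In the same fits 0 to 1 of 18193 genes were called, and 7.11% to 12.9% of all genes had an unadjusted p under 0.05. CD133 high replicate 1 lay nearer to the CD133 low mean than to the mean of replicates 2 and 3 for 29 of 35 members (82.9%) and for 70.1% of all genes.

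**Figure D1:**
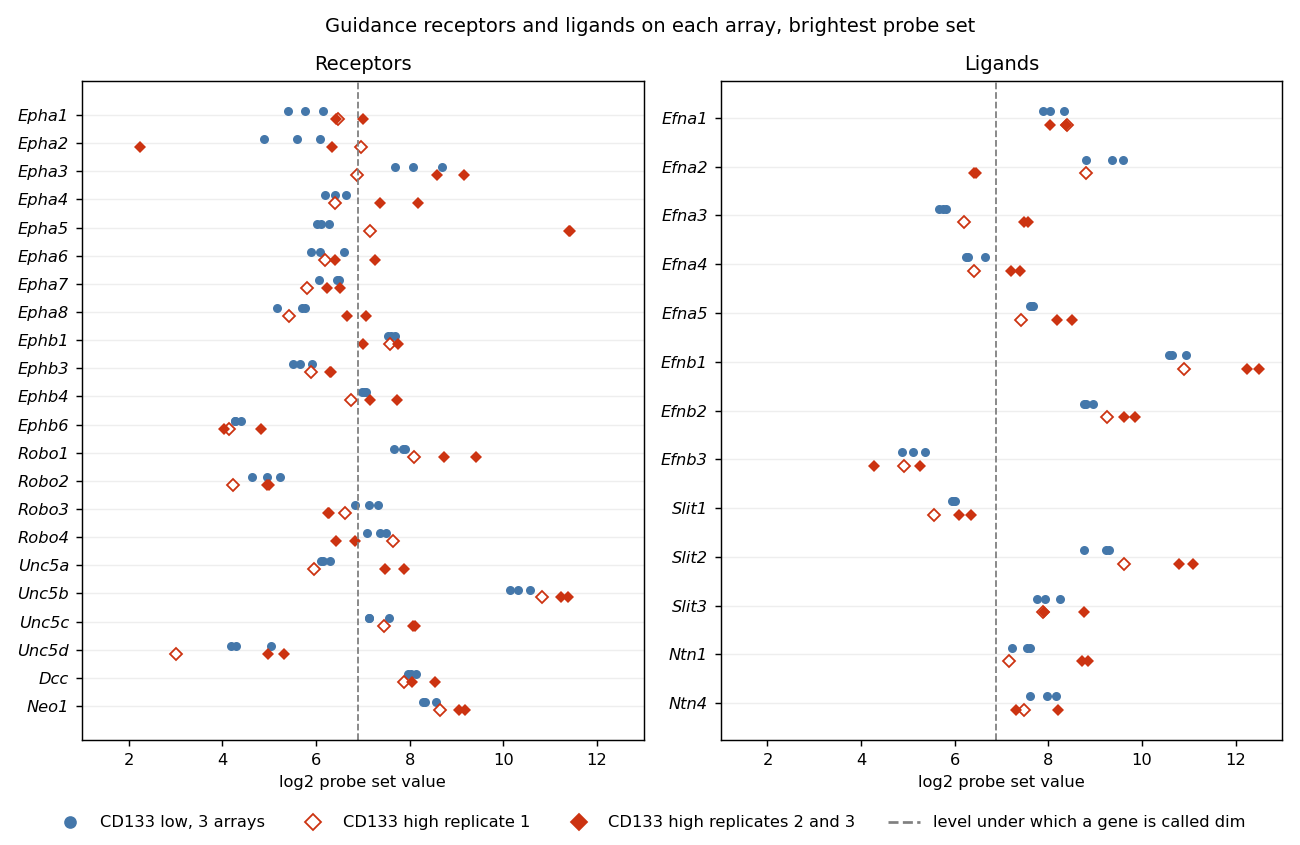
Log2 value of the brightest probe set of each of the 22 receptors (left) and 13 ligands (right) on every array; circles are the CD133 low arrays, open diamonds CD133 high replicate 1, filled diamonds CD133 high replicates 2 and 3, and the dashed line is the level of 6.89 under which a gene is called dim. For Epha5, Efna3, Efnb1, Slit2 and Ntn1 the filled diamonds lie to the right of all other points, and for Efna2 to the left.

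Of the B-type ephrins, Efnb2 and Efnb1 passed without replicate 1 and Efnb3 did not. Efnb2, which encodes ephrin-B2, the partner of EphB4 in the making of arteries and veins, read 8.95, 8.77 and 8.80 in CD133 low and 9.25, 9.85 and 9.62 in CD133 high, in the order of replicates 1, 2 and 3 here and in what follows. The fractions did not overlap, and replicate 1 was the lowest CD133 high array. The difference was 0.74 (SE 0.19), with an adjusted p of 0.276 from limma, and without replicate 1 it was 0.90 (SE 0.13, adjusted p = 0.0093). All 4 probe sets of Efnb2 were higher in CD133 high, by 0.74 to 1.63, and 3 of them passed without replicate 1. The second probe set, at 8.66, 8.75 and 8.79 against 9.49, 9.61 and 9.71, had replicate 1 close to the other CD133 high arrays and gave 0.87 (SE 0.14, adjusted p = 0.102), the smallest adjusted p of any member probe set. Efnb1, which encodes ephrin-B1, a ligand of EphB receptors at epithelial and skeletal boundaries, read 10.64, 10.94 and 10.57 in CD133 low and 10.89, 12.49 and 12.25 in CD133 high. Replicate 1 lay inside the CD133 low range, and replicates 2 and 3 lay above it. Its difference of 1.16 (SE 0.41, adjusted p = 0.298) grew to 1.66 (SE 0.15, adjusted p = 0.0037) without replicate 1, and its 3 probe sets differed by 0.45 to 1.16. Efnb3, the third B-type ephrin, was dim at a mean of 4.96 and differed by −0.30 (SE 0.36).

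The A-type ephrins went both ways. Efna3, the gene of ephrin-A3, read 5.65, 5.81 and 5.76 in CD133 low, in the dim range, and 6.20, 7.57 and 7.48 in CD133 high. The fractions did not overlap, and replicate 1 was the nearest to the CD133 low arrays. Its difference was 1.35 (SE 0.39, adjusted p = 0.297), and 1.79 (adjusted p = 0.0051) without replicate 1. Efna2, the gene of ephrin-A2, read 9.37, 9.60 and 8.81 in CD133 low and 8.81, 6.45 and 6.41 in CD133 high. Replicate 1 overlapped the CD133 low arrays, and replicates 2 and 3 lay in the dim range. The difference was −2.03 (SE 0.65, adjusted p = 0.297), and −2.83 (SE 0.25, adjusted p = 0.0034) without replicate 1. This rested on 1 probe set, as the other probe set of Efna2, dim at a mean of 5.11, differed by 0.21. Efna5, the gene of ephrin-A5, read 7.67, 7.61 and 7.66 in CD133 low and 7.42, 8.19 and 8.51 in CD133 high, so that replicate 1 was below and the other replicates above the CD133 low arrays. Its difference was 0.40 (SE 0.29, adjusted p = 0.493), and 0.70 (adjusted p = 0.0268) without replicate 1. Efna4 was dim at a mean of 6.70 and differed by 0.61 (SE 0.31), and by 0.91 without replicate 1 (adjusted p = 0.0361). Efna1, whose ephrin-A1 is the main ligand of EphA2, had means of 8.08 and 8.27 in CD133 low and CD133 high and differed by 0.20 (SE 0.19). Its second probe set differed the other way, by −0.62, and was lower without replicate 1 at −1.11 with a call in limma (adjusted p = 0.0166).

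**Figure D2:**
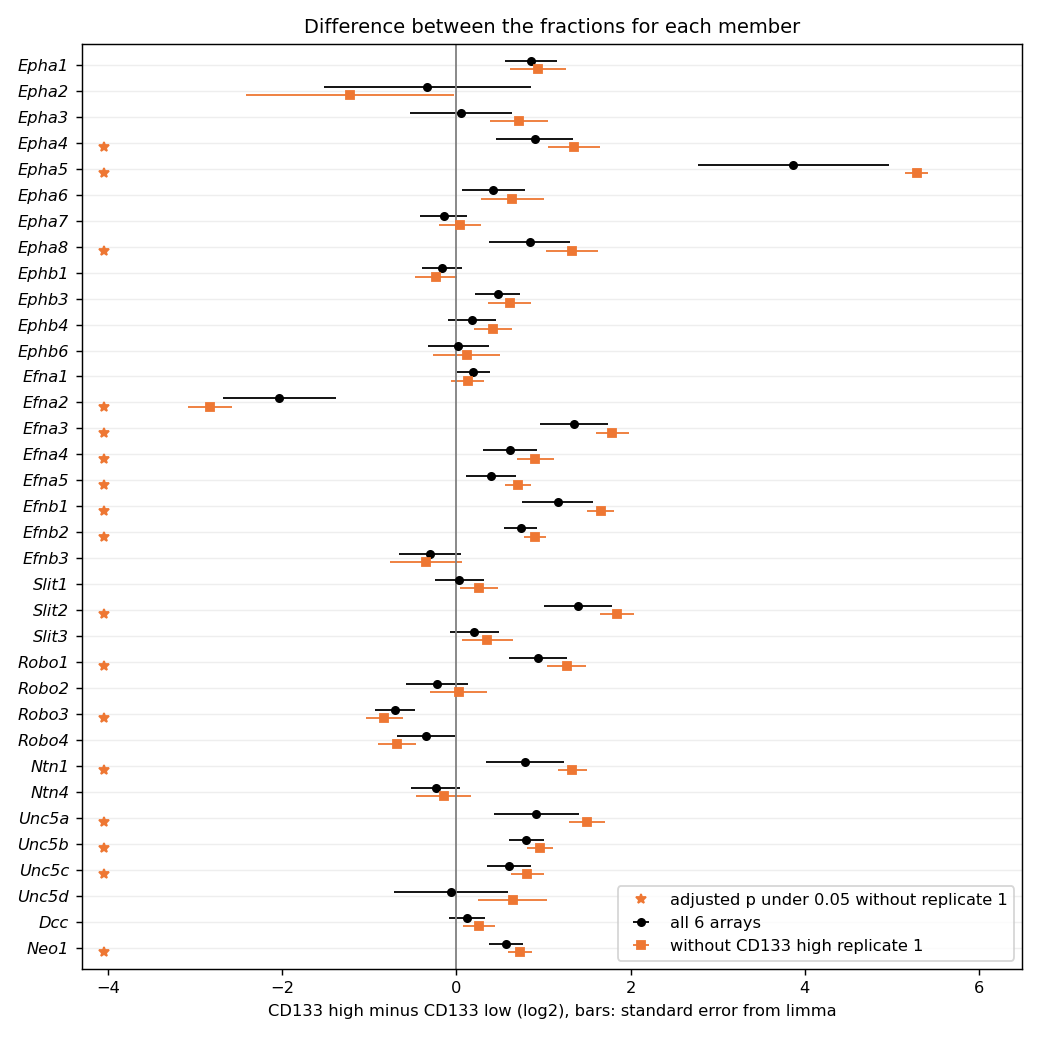
Difference between the fractions (CD133 high minus CD133 low, log2) for each of the 35 members with its standard error, from all 6 arrays (circles) and without CD133 high replicate 1 (squares); stars mark the 17 members with an adjusted p under 0.05 without that replicate. Epha5 at 3.87 and Efna2 at −2.03 lie farthest from 0 with all arrays, and most squares lie farther from 0 than their circles.

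Among Eph receptors, Epha5 had the largest difference of all members. EphA5, an A-type receptor best known from the brain, had probe set values of 6.10, 6.27 and 6.03 in CD133 low and 7.16, 11.41 and 11.43 in CD133 high. The CD133 low arrays lay in the dim range, replicate 1 just above it and replicates 2 and 3 far above. The difference was 3.87 (SE 1.10, adjusted p = 0.294), and 5.29 (SE 0.13, adjusted p = 3.08e-04) without replicate 1; because it starts in the dim range it is not read as a fold. The other 3 probe sets of Epha5 were dim, at means of 4.01 to 4.94, and differed by 0.24 to 1.11, with none called with or without replicate 1. So the size of this difference was a property of 1 probe set. Epha1, an epithelial Eph receptor, read 5.76, 5.41 and 6.15 in CD133 low and 6.46, 7.00 and 6.42 in CD133 high. It was dim, its fractions did not overlap, and replicate 1 stood between the other CD133 high arrays. The difference was 0.85 (SE 0.30, adjusted p = 0.297), and 0.94 (adjusted p = 0.0977) without replicate 1, and the other 2 probe sets differed by 0.02 and −0.33. Epha4, the receptor that binds ephrins of both types, read 6.20, 6.42 and 6.64 in CD133 low and 6.41, 7.36 and 8.18 in CD133 high, with replicate 1 within the CD133 low range. Its difference was 0.90 (SE 0.44, adjusted p = 0.353 in limma), and 1.35 (adjusted p = 0.0302) without replicate 1. This probe set was itself dim over all arrays, at a mean of 6.87. The second, at a mean of 6.85, differed by 0.03. All 4 other probe sets of Epha4 were dim and differed by −0.29 to 0.52, the 0.52 at a probe set that read 0 on every CD133 low array.

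The remaining Eph receptors differed little or unevenly. Epha8 was dim, at means of 5.54 and 6.39, and differed by 0.84 (SE 0.46), and by 1.33 without replicate 1 (adjusted p = 0.0311). Epha2, a receptor often abundant in carcinomas, read 6.09, 4.89 and 5.58 in CD133 low and 6.96, 2.25 and 6.35 in CD133 high, a range so wide that its difference of −0.34 (SE 1.19) says little. Leaving out replicate 2 turned it to 1.13. Epha3 had means of 8.16 and 8.21, with CD133 high values of 6.88, 8.59 and 9.16, so replicate 1 was below and replicate 3 above all CD133 low arrays. The second probe set of Epha3, not dim at a mean of 7.45, differed by 0.87 (SE 0.38). Without replicate 1 it differed by 1.15 (adjusted p = 0.0752 in limma). The dim probe sets of Epha3 differed by −0.10 and 1.87. Epha6 and Epha7 were dim, with differences of 0.43 and −0.15. None of the 4 measured EphB receptors passed with or without replicate 1. Ephb4, the receptor of ephrin-B2, had means of 7.03 and 7.21 and a difference of 0.18 (SE 0.28). Ephb1 had means of 7.61 and 7.44 (−0.16, SE 0.23), Ephb3 was dim and differed by 0.47 (SE 0.26), and Ephb6, a member without kinase activity, was dim at 4.31 and 4.33. The family medians were 0.63 over 8 EphA receptors, 0.10 over 4 EphB receptors, 0.40 over 5 A-type ephrins and 0.74 over 3 B-type ephrins, or 0.83, 0.27, 0.70 and 0.90 without replicate 1, and no test compared these medians with each other.

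In the Slit and Robo family, a ligand and a receptor had higher values in CD133 high. Slit2, a secreted Slit, read 9.24, 8.77 and 9.29 in CD133 low and 9.61, 10.80 and 11.09 in CD133 high. The fractions did not overlap, and replicate 1 lay just above the highest CD133 low array. The difference was 1.40 (SE 0.39, adjusted p = 0.291), and 1.85 (SE 0.20, adjusted p = 0.0050) without replicate 1. All 3 probe sets of Slit2 were higher, by 1.09 to 1.53. Robo1, a receptor of Slit2, read 7.68, 7.87 and 7.91 in CD133 low and 8.09, 8.74 and 9.43 in CD133 high. Here too the fractions did not overlap and replicate 1 was the lowest of the CD133 high arrays. Its difference was 0.94 (SE 0.33, adjusted p = 0.297), and 1.27 (adjusted p = 0.0171) without replicate 1, while its other probe sets, both dim, differed by 0.03 and 0.12. Robo3, a divergent Robo that governs midline crossing of axons, read 6.83, 7.32 and 7.13 in CD133 low and 6.62, 6.28 and 6.25 in CD133 high. It was the only member whose CD133 high arrays all lay below the CD133 low arrays, although close to the dim level. Its difference was −0.71 (SE 0.23, adjusted p = 0.297), and −0.83 (adjusted p = 0.0468) without replicate 1, and its other probe set, dim as well, differed by 0.38. Robo4, the endothelial Robo, read 7.49, 7.37 and 7.09 against 7.64, 6.83 and 6.43, with a difference of −0.35 (SE 0.33) that was −0.68 (adjusted p = 0.0801) without replicate 1. Robo2 and Slit1 were dim, with differences of −0.22 and 0.03, and Slit3 had means of 7.98 and 8.19. In RefSeq, Robo3 and Robo4 are next to each other on chromosome 9, and Efna1, Efna3 and Efna4 follow each other on chromosome 3 with no protein-coding gene between them. Within the latter the differences were 0.20, 1.35 and 0.61.

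Of the 6 netrin receptors, 0 passed with all 6 arrays in limma. An unadjusted p under 0.05 was found for 3 (50%), where 18.2% of all genes had one. Without replicate 1, Unc5a, Unc5b, Unc5c and Neo1 (66.7%) passed as higher, where 11.7% of all genes did. Unc5b, a netrin receptor of endothelial tip cells and of p53-dependent death signalling, read 10.58, 10.14 and 10.32 in CD133 low and 10.83, 11.39 and 11.23 in CD133 high. Every CD133 high array exceeded every CD133 low one. The difference of 0.80 (SE 0.20) had the smallest adjusted p of the 35 members, 0.272, and was 0.96 (SE 0.15, adjusted p = 0.0131) without replicate 1. A second bright probe set of Unc5b, at a mean of 9.68, differed by 0.15 (SE 0.25) and read highest in replicate 1. Neo1, which encodes neogenin, a receptor of netrins and of repulsive guidance molecules, read 8.33, 8.28 and 8.57 in CD133 low and 8.65, 9.19 and 9.06 in CD133 high, without overlap. Its difference was 0.57 (SE 0.19, adjusted p = 0.297), and 0.73 (adjusted p = 0.0196) without replicate 1, and 4 of its 5 probe sets were higher. Unc5c read 7.12, 7.13 and 7.57 in CD133 low and 7.45, 8.07 and 8.11 in CD133 high, with replicate 1 inside the CD133 low range. Its difference was 0.60 (SE 0.25, adjusted p = 0.317), and 0.81 (adjusted p = 0.0352) without replicate 1. Unc5a was dim over all arrays, at 6.10, 6.14 and 6.31 in CD133 low and 5.95, 7.88 and 7.48 in CD133 high. Replicate 1 was the lowest of all 6 arrays and the other replicates the highest, and the difference was 0.92 (SE 0.49, adjusted p = 0.377), or 1.50 (adjusted p = 0.0090) without replicate 1. Dcc, the founding netrin receptor, had means of 8.04 and 8.16 and Unc5d was dim, with differences of 0.12 (SE 0.21) and −0.06 (SE 0.65).

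Of the netrins, Ntn1 passed without replicate 1 and Ntn4 passed in neither fit. Ntn1, the gene of netrin-1, read 7.54, 7.21 and 7.61 in CD133 low and 7.17, 8.85 and 8.73 in CD133 high. Again replicate 1 was the lowest of all arrays and replicates 2 and 3 the highest. The difference was 0.79 (SE 0.45, adjusted p = 0.398), and 1.33 (SE 0.17, adjusted p = 0.0074) without replicate 1, and the dim second probe set differed by −0.21. Ntn4, a basement membrane netrin that binds laminin, read 7.97, 8.15 and 7.60 against 7.49, 7.31 and 8.21, a difference of −0.24 (SE 0.29). The median was 0.59 over the 6 netrin receptors, −0.28 over the 4 Robo receptors and 0.21 over the 3 Slits, or 0.77, −0.33 and 0.36 without replicate 1.

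**Figure D3:**
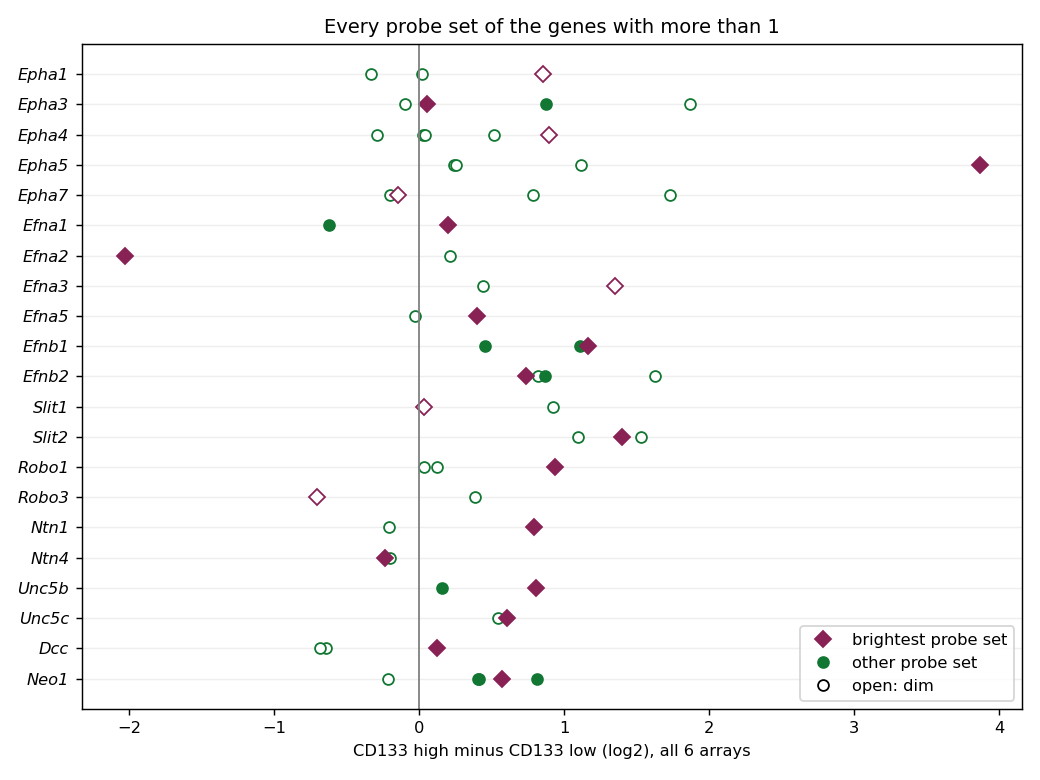
Difference between the fractions (CD133 high minus CD133 low, log2, all 6 arrays) for every probe set of the 21 members with more than 1 probe set; diamonds are the brightest probe set, circles the others, and open symbols are dim. The probe sets of Efnb1, Efnb2, Slit2 and Unc5c lie on one side of 0, whereas the brightest probe sets of Epha5 and Efna2 lie far from the others of their gene.

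Probe sets of one gene did not always tell the same story. Of the 21 members with more than 1 probe set, 9 were higher in CD133 high at all of them and 1, Ntn4, was lower at all of them. Over all 75 member probe sets, 48 of them dim, 0 passed with all 6 arrays in limma, where 0.182% of all probe sets did, 17 had an unadjusted p under 0.05, where 15.7% of all did, and 23 passed without replicate 1, where 21.3% of all did. Of those 23, 17 were the brightest probe sets and the others belonged to Efnb2 (2), Efnb1, Slit2, Neo1 and Efna1. Efnb1, Efnb2, Slit2 and Neo1 were thus the members called at more than 1 probe set without replicate 1, each time in the same direction.

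Partners of the same pathways were counted from lists chosen by role. Of 63 measured partners, 1 passed with all 6 arrays, where 0.253% of all genes did. It was Ablim1, an actin-binding LIM protein in netrin signalling, with means of 10.02 in CD133 low and 8.53 in CD133 high (−1.50, SE 0.15, adjusted p = 0.0277 in limma). The call of Ablim1 was lost without any one of the arrays other than CD133 high replicate 1 (adjusted p = 0.150 to 0.254), with the mean of its probe sets (−0.77, adjusted p = 0.215) and under other alternatives, in a range of 0.0040 to 0.254. In the list of 29 Eph and ephrin partners 21 were higher and 8 lower, with a median of 0.28, and the smallest p belonged to the exchange factor Ngef (0.97), the scaffold Grip1 (−0.99) and the Src family kinases Fyn (−0.38) and Yes1 (0.61). The 16 Slit and Robo partners had a median of 0.14, with the Ena/VASP protein Evl at −0.72, the Robo-binding GTPase activator Srgap2 at 0.93, the deubiquitinase Usp33 at 0.70 and the Ras exchange factor Sos1 at 0.71. The 18 netrin partners had a median of −0.02, with the Rac exchange factors Dock1 at 0.47 and Trio at 0.49 and the lipid transfer protein Pitpna at −0.59 beside Ablim1. Dim were 4 of the 29 Eph and ephrin partners, 0 of the 16 Slit and Robo partners and 8 of the 18 netrin partners. Of the named partners only Grip1 was dim, at a mean of 5.33. Without replicate 1, 11 of 29, 7 of 16 and 6 of 18 partners passed in these lists, 8, 5 and 4 of them higher. These are 37.9%, 43.8% and 33.3% called, where 26.3% of all genes were, and 27.6%, 31.2% and 22.2% called higher, where 11.7% of all genes were. Of the named partners, Ngef (1.33), Srgap2 (1.19), Usp33 (0.91), Dock1 (0.59) and Trio (0.72) passed as higher and Grip1 (−1.24), Evl (−0.74), Pitpna (−0.90) and Ablim1 (−1.47) as lower without replicate 1, while Fyn (−0.38), Yes1 (0.66) and Sos1 (0.92) did not pass. Most lymphocyte markers were lower in CD133 high. Of the 6 measured T-cell markers 4 passed with all 6 arrays, all lower, with a list median of −2.32, and their summed linear value lay between 1351 and 1612 in CD133 high and between 4775 and 6428 in CD133 low, with none dim. Cd8a went the other way, at 0.31, and passed as higher without replicate 1 (0.56, adjusted p = 0.0207). Of the 4 B-cell markers 3 passed, all lower, with a list median of −2.94 and sums of 697 to 1164 against 4072 to 5311, and none dim, while Blk differed by 0.11. In such sorted bulk RNA, fewer cells of a type and less RNA per cell cannot be told apart, and the part of lymphocytes in the lower values of Ablim1, Evl and Fyn, which lymphocytes also use, was not tested.

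Several members are used by blood vessels, and endothelial markers were measured beside them. The 14 endothelial markers had a median difference of 0.16, and 0.01 without replicate 1. Their summed linear value was 5205, 4396 and 4860 in CD133 high, against 4031 to 4751 in CD133 low. Replicates 1 and 3 thus lay above every CD133 low sum and replicate 2 within their range, and Erg was the only dim marker. None of the 14 passed with all 6 arrays, where 0.253% of all genes did. The fractions did not overlap for 1 of them, Ptprb (0.58, SE 0.17), or 7.14%, where 23.6% of all genes had such fractions. Without replicate 1, 2 were higher and 4 lower, where 11.7% of all genes were higher and 14.6% lower. Egfl7, a secreted endothelial factor, differed by 0.96 and Eng, the endothelial co-receptor endoglin, by 0.67, and both passed as higher without replicate 1 (1.38 and 0.96). Emcn, Mmrn2, Vwf and Pecam1 differed by −0.69, −0.69, −0.45 and −0.36, and they passed as lower without replicate 1 (−1.18, −1.01, −0.90 and −0.87). The part of endothelial RNA in the values of Efnb2 and Unc5b was not tested. Markers of pericytes and smooth muscle (9), macrophages (7) and nerve and Schwann cells (4, of which 3 dim) had medians of −0.03, 0.06 and −0.10. In these lists 0 passed with all 6 arrays. Without replicate 1, 33.3%, 28.6% and 25% of them passed, where 26.3% of all genes did. The 10 fibroblast markers had a median of 0.12, with sums of 60896, 66947 and 81469 in CD133 high against 60333 to 65731 in CD133 low, and none dim. Of these markers 8 were higher and 2 lower, and 0 passed with all 6 arrays. Without replicate 1, Col1a1 (0.64), Dpt (1.12) and Pdgfra (0.92) passed as higher and Thy1 (−1.51) as lower. These are 40% called, where 26.3% of all genes were, and 30% called higher, where 11.7% of all genes were. The part of fibroblast RNA in the values of Slit2 and Robo1 was not tested.

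**Figure D4:**
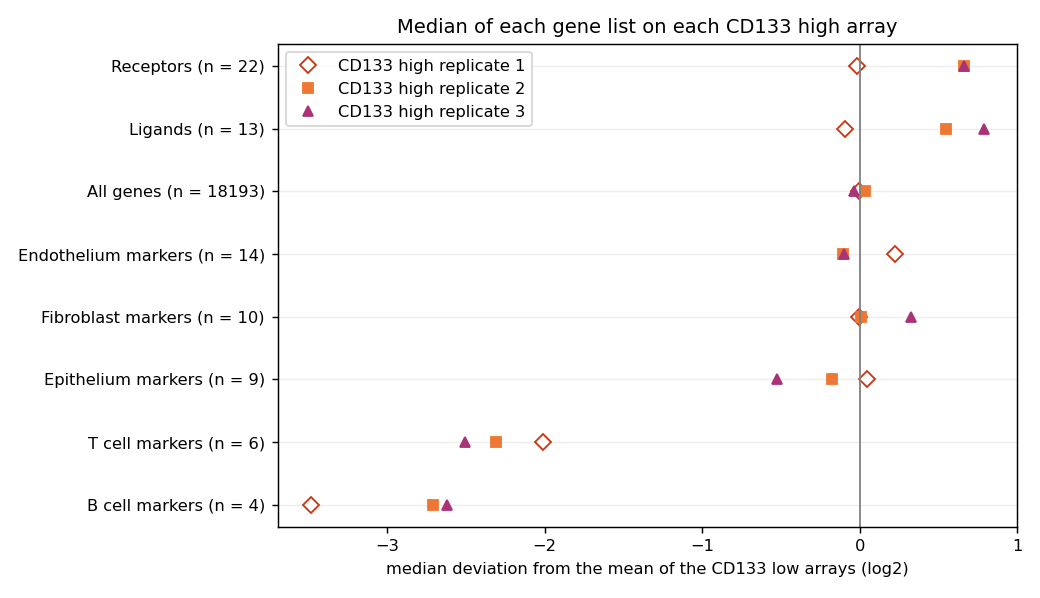
Median over each gene list of the deviation from the mean of the CD133 low arrays (log2) on each CD133 high array; n is the number of genes in a list. Receptors and ligands lie at −0.02 and −0.09 on replicate 1 and between 0.54 and 0.79 on replicates 2 and 3, all genes stay near 0, and T-cell and B-cell markers lie below −2 on all 3 arrays.

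By array, the median deviation from the CD133 low mean was −0.02, 0.66 and 0.66 for receptors and −0.09, 0.54 and 0.79 for ligands on CD133 high replicates 1, 2 and 3, and −0.01, 0.04 and −0.04 for all genes. As a median over receptors or over ligands, the shift was thus seen in replicates 2 and 3 and not in replicate 1. Over the 19 members not dim the medians were 0.17, 0.71 and 0.79 on replicates 1, 2 and 3, against −0.004, −0.07 and −0.08 over all genes not dim. Over the 16 dim members they were −0.15, 0.56 and 0.63, against −0.01, 0.24 and 0.03 over all dim genes. Single members differed in this respect. Unc5b, Efnb2, Efna3, Slit2 and Epha5 stood 0.49, 0.41, 0.46, 0.51 and 1.03 above the CD133 low mean in replicate 1, while Ntn1, Unc5a and Efna5 stood at −0.29, −0.23 and −0.22.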

How the data were processed

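Arrays were 3 of the CD133 high and 3 of the CD133 low fraction. The range and shape of the deposited values are those of log2 probe set signals. The probe summary and normalization used by the authors are not given in the sources used here. Per the labels' protocols, total RNA was made into biotinylated cRNA for Affymetrix arrays. The series' design text names a mouse array with fewer probe sets than the deposited table holds, and the platform annotation of the table was used. Members and gene lists were chosen with earlier results of these data known. Replicates were numbered in accession order.

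After 64 control probe sets were left out, 45037 probe sets were fitted in limma, version 3.58.1 (R 4.3.3; files read by data.table, version 1.17.8), with a variance trend, two-sided, Benjamini-Hochberg adjustment over all of them and a threshold of 0.05. No filter, floor or covariate was used. Errors of differences are standard errors from limma. With 3 arrays a group, the smallest p of an exact two-sided permutation test is 0.1, so none was run. The annotation names 1 gene for 34945 probe sets, several for 932 and none for 9160; 34741 matched RefSeq by Entrez gene, and 0 symbols changed. A value on every array is given for members past the threshold, the 12 with the smallest p, and 4 more with the smallest p without CD133 high replicate 1; Epha2, Robo4 and Ntn4 and the second probe set of Efnb2 were added after their values were seen. Partners named are up to 4 per list with the smallest p. On simulated data with the spread of all 6 arrays, 4.35%, 50.7% and 78.1% of probe sets changed by 1, 2 and 3 (log2) were recovered, with 5 false calls, and 29%, 62.7% and 85.9%, with 7 false calls, when the simulated spread was taken from CD133 low alone. The simulated noise was independent and of equal spread on all arrays of a probe set. No array deviated as CD133 high replicate 1 did from replicates 2 and 3, so these shares do not cover that case. Alternatives were another normalization, a filter, a floor, other variance models and probe set choices, a threshold of 0.1 and leaving out each array. The number of arrays limits the precision.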

Additional observations from a re-analysis of the deposited data

How the results depend on the processing

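Over the alternatives, 0 members were called in either direction in limma, except that array weights, which gave CD133 high replicate 1 the lowest weight, called 9 higher and 1 lower. The share of all genes called with array weights was not counted, so these calls are not read as a result about the members. Leaving out 1 array at a time gave 0 to 15 called higher and 0 to 2 called lower, with all calls from the fit without CD133 high replicate 1. In that fit 11.7% of all genes were called higher and 14.6% lower. The median difference ranged from 0.31 to 0.65 over all members, 0.22 to 0.64 over receptors and 0.31 to 0.70 over ligands when 1 array was left out. With CD133 high replicate 1 alone against the CD133 low arrays, an alternative chosen after seeing the data, the ligand median was −0.093, and the direction turned for Dcc (−0.16), Efna5 (−0.22), Epha2 (1.44), Epha3 (−1.28), Epha4 (−0.0095), Epha6 (−0.0070), Epha8 (−0.13), Ephb4 (−0.28), Ephb6 (−0.18), Ntn1 (−0.29), Robo4 (0.33), Slit1 (−0.42), Slit3 (−0.093), Unc5a (−0.23) and the partner Pitpna (0.023). Averaging all probe sets of each gene turned Dcc (−0.40), Efna1 (−0.21) and Epha7 (0.54). Without shared-sequence probe sets (_s_at, _x_at and _a_at) the partners Evl (0.019) and Yes1 (−0.30) turned. Setting values below 5 to 5 turned Epha2 (0.54) and Unc5d (0.095) and left no difference for Ephb6. Array weights turned Robo2 (0.0039) and Unc5d (0.49), quantile normalization Ephb6 (−0.088) and Slit1 (−0.028), and equal medians Ephb6 (−0.027) and Slit1 (−0.014). With 1 array left out, the differences of Dcc (−0.070 to 0.26), Epha2 (−1.22 to 1.13), Epha3 (−0.42 to 0.72), Epha7 (−0.31 to 0.040), Ephb1 (−0.32 to 0.055), Ephb4 (−0.078 to 0.42), Ephb6 (−0.22 to 0.17), Robo2 (−0.37 to 0.027), Slit1 (−0.14 to 0.26), Slit3 (−0.084 to 0.36) and Unc5d (−0.50 to 0.65) took both signs. In all, 16 of the 35 members kept their sign under every alternative that gave a value, and 19 did not. The cause of these changes was not tested. No paired analysis was possible because the labels give no replicate numbers.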
